A study of Homo sapiens with 6 samples.

Results

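The genes described here encode the enzymes that make cholesterol, the sterol-sensing machinery that controls them, and proteins that move sterols within and out of cells. The rule lists them by name and does not use measured values to choose them, but the list was made with earlier results of these arrays known. It holds 30 genes, and 27 of them were measured among the 33616 genes of the array. Each gene was represented by the array row (probes grouped by the locus they read) with the highest mean over all arrays, among rows annotated to exactly 1 gene. FDFT1 and NR1H2 had no such row, and MYLIP had only a row that it shares with a microRNA gene, so these 3 genes are left out of every count of signal. The measured genes were 7 enzymes from acetyl-CoA to squalene, 10 enzymes from squalene to cholesterol, 5 SREBP regulators, 2 sterol transport proteins and 3 genes of the liver X receptor (LXR) system. The cells were MHH-cALL4, an established human cell line from a Philadelphia-like (Ph-like) acute lymphoblastic leukaemia of early B cells. In one group, of 3 arrays, the cells had been given DMSO, the drug's vehicle, for 12 h. In the other, also of 3 arrays, they had been given 1 µM ruxolitinib, which blocks the kinases JAK1 and JAK2, for 12 h. All 6 cultures were grown in medium with fetal bovine serum, which contains lipoproteins. The titles and source names of the ruxolitinib samples read MHH-cALL5, while their cell line field names MHH-cALL4, so the line of the treated cells rests on that field.

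Cholesterol is built from acetyl-CoA by the mevalonate pathway, which leads to squalene, and by the later steps that close squalene into lanosterol and trim lanosterol to cholesterol. When sterols in the endoplasmic reticulum are scarce, SCAP carries the membrane-bound SREBP transcription factors to the Golgi, where proteases release them to switch on these genes, and when sterols are plentiful INSIG proteins hold SCAP back. Oxidised sterols act in the opposite sense through LXR, which switches on exporters such as ABCA1 and ABCG1. Dividing cells, leukaemia cells among them, need sterols for new membrane.

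The values are log2 signals, so a difference of 1 is a factor of 2. All 9 B-cell precursor markers looked up (CD79A, CD79B, VPREB1, IGLL1, PAX5, EBF1, CRLF2, RAG1 and DNTT) were above the median level of all genes, which was 5.25. Their mean lay between 15.3 and 15.7 in DMSO and between 15.5 and 15.9 with ruxolitinib. The mean over 3 T cell markers lay between 4.14 and 4.58 and between 4.31 and 4.45, over 4 monocyte markers between 5.02 and 5.26 and between 5.16 and 5.46, and over 2 erythroid markers between 3.85 and 4.51 and between 3.97 and 4.37. Over all genes 350 were lower and 34 higher with ruxolitinib at an adjusted p under 0.05 (limma, Benjamini-Hochberg adjustment), which is 1.04% and 0.101% of the genes tested. DMSO replicate 1 and ruxolitinib replicate 3 stood apart from the other 4 arrays, with a mean signal over 215 small nuclear, nucleolar and ribosomal RNA genes of 8.48 and 8.45 against 7.94 to 8.17, so results are also given without this pair.

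With ruxolitinib, 3 of the 27 sterol genes fell and 0 rose. All 3 encode enzymes of the later steps, between lanosterol and cholesterol. CYP51A1, which encodes the lanosterol demethylase, fell 2.46-fold, DHCR7, which encodes the last reductase of the pathway, fell 2.70-fold, and NSDHL, which encodes a dehydrogenase that helps to remove methyl groups from lanosterol, fell 1.81-fold. The 3 genes are 11.1% of the 27, against 1.04% of all genes called lower and 2.02% of genes above the median level, where 26 of the 27 lie. The sterol genes were listed with earlier results of these arrays known, so these shares are a description and not a test.

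The CYP51A1 signal was 10.0, 10.6 and 10.6 on the 3 DMSO arrays and 9.23, 9.09 and 8.98 on the 3 ruxolitinib arrays. The groups did not overlap, and the 3 ruxolitinib arrays lay close together (SD 0.12) while DMSO replicate 1 was the lowest of the DMSO arrays. The gene fell by 1.30 ± 0.20 on the log2 scale (SE, n = 3 per group; limma adjusted p = 0.00909). For DHCR7 the signal was 8.73, 9.02 and 9.47 in DMSO and 8.15, 7.43 and 7.35 with ruxolitinib. These groups were also apart, with ruxolitinib replicate 1 nearest to the DMSO arrays and a wider spread in both groups (SD 0.37 and 0.44). DHCR7 fell by 1.43 ± 0.26 (SE; limma adjusted p = 0.0222). For NSDHL the signal was 9.23, 9.09 and 9.33 in DMSO and 8.50, 8.42 and 8.18 with ruxolitinib, 2 tight groups that did not overlap. NSDHL fell by 0.85 ± 0.18 (SE; limma adjusted p = 0.046), just inside the threshold. None of these calls held under every setting. CYP51A1 lost its call without DMSO replicate 2 (limma adjusted p = 0.0692) or without ruxolitinib replicate 2 (limma adjusted p = 0.071). DHCR7 lost it without DMSO replicate 2 or 3 or ruxolitinib replicate 2 or 3 (limma adjusted p from 0.0676 to 0.151), and NSDHL whichever array was left out (limma adjusted p up to 0.178). Scaling mattered too: DHCR7 lost its call with quantile normalization (limma adjusted p = 0.102) and cyclic loess (limma adjusted p = 0.0597), as did NSDHL (limma adjusted p = 0.221 and 0.133), which also lost it with an intensity-dependent prior (limma adjusted p = 0.0926).

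**Figure D1:**
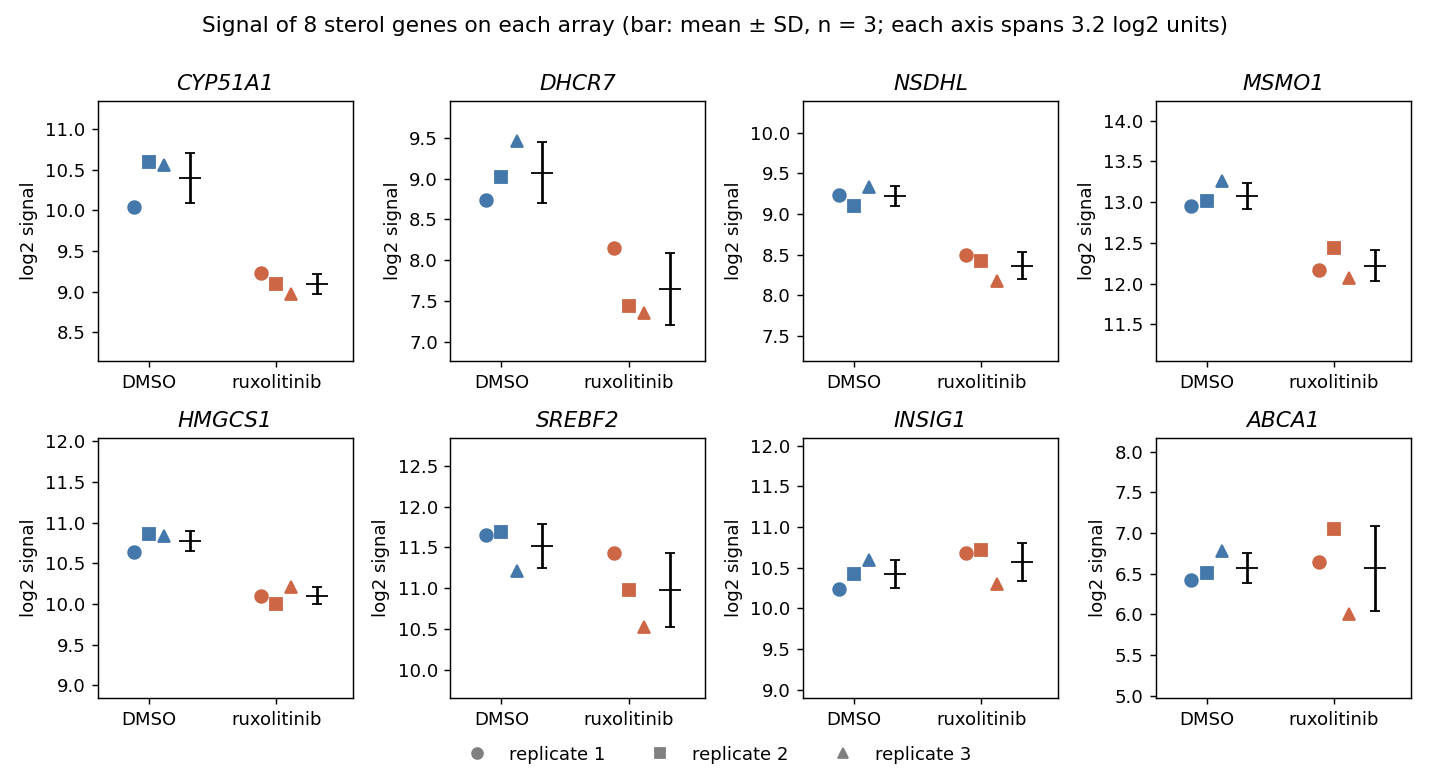
Log2 signal of 8 sterol genes on each of the 6 arrays; points are arrays, with a marker shape for each replicate number, and the bar beside them is the mean ± SD of 3 arrays. CYP51A1, DHCR7, NSDHL, MSMO1 and HMGCS1 separate the treatments, whereas the arrays of SREBF2, INSIG1 and ABCA1 overlap.

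MSMO1 encodes the sterol oxidase that works in the same removal of methyl groups as NSDHL, and its values lay just outside the threshold. Its signal was 13.0, 13.0 and 13.3 in DMSO and 12.2, 12.4 and 12.1 with ruxolitinib, without overlap. The log2 difference was -0.85 ± 0.18 (SE; limma adjusted p = 0.0543), the same size as that of NSDHL. It passed when genes below the median level were dropped (limma adjusted p = 0.0497) and with array weights (limma adjusted p = 0.0455). HSD17B7, which encodes the reductase of the same group of steps, had a log2 difference of -0.17 with a 95% interval from -0.56 to 0.21, and did not pass.

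SQLE encodes squalene epoxidase, which opens the sterol branch, and LSS encodes the cyclase that makes lanosterol. The SQLE signal was 9.02, 10.0 and 10.0 in DMSO and 9.12, 8.69 and 9.25 with ruxolitinib. DMSO replicate 1 thus sat among the ruxolitinib arrays, about 1 log2 unit below the other DMSO arrays. The log2 difference of SQLE was -0.67 ± 0.28 (SE) and did not pass over all arrays (limma adjusted p = 0.455), but without DMSO replicate 1 and ruxolitinib replicate 3 it was -1.12 ± 0.23 and passed (limma adjusted p = 0.0473). LSS had a log2 difference of -0.53 ± 0.21 and did not pass (limma adjusted p = 0.426), and its groups overlapped by a narrow margin, with DMSO replicate 1 at 8.02 and ruxolitinib replicate 1 at 8.05. SC5D, a desaturase near the end of the pathway, was at -0.35 ± 0.20 and did not pass. EBP, the isomerase that moves a double bond in the sterol ring (-0.061, 95% interval -0.70 to 0.58), and TM7SF2, a sterol reductase (0.033, 95% interval -0.43 to 0.49), did not pass, and the sign of each turned with an array left out. The median log2 difference over the 10 later enzymes was -0.60, against -0.019 over all genes and -0.071 over genes above the median level.

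Of the 7 measured enzymes from acetyl-CoA to squalene 0 passed the test in either direction (limma, adjusted p; without adjustment, 1 was lower and 0 higher at p under 0.05). HMGCS1, which encodes the synthase that commits acetyl-CoA to the mevalonate pathway and is a known SREBP target, came nearest. Its signal was 10.6, 10.9 and 10.8 in DMSO and 10.1, 10.0 and 10.2 with ruxolitinib. The groups did not overlap, but the log2 difference of -0.67 ± 0.17 (SE) did not pass (limma adjusted p = 0.117; 0.0627 to 0.41 over the alternatives). IDI1, the isomerase of the isoprenoid building blocks, had 14.1 on each of the 3 ruxolitinib arrays and 13.8, 15.0 and 14.6 in DMSO, so that DMSO replicate 1 lay below the treated arrays. Its log2 difference was -0.35 ± 0.26 over all arrays and -0.68 ± 0.22 without the pair of arrays that stood apart (limma adjusted p = 0.274). The remaining genes of this part of the pathway were ACAT2 (-0.17), which encodes an acetyl-CoA thiolase, the mevalonate kinases MVK (-0.24) and PMVK (-0.34), MVD (-0.25), which encodes mevalonate decarboxylase, and FDPS (-0.16), which encodes farnesyl diphosphate synthase. For each of these 5 the 95% interval of the log2 difference spanned 0 and the groups overlapped. All 7 differences were below 0, with a median of -0.25.

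**Figure D2:**
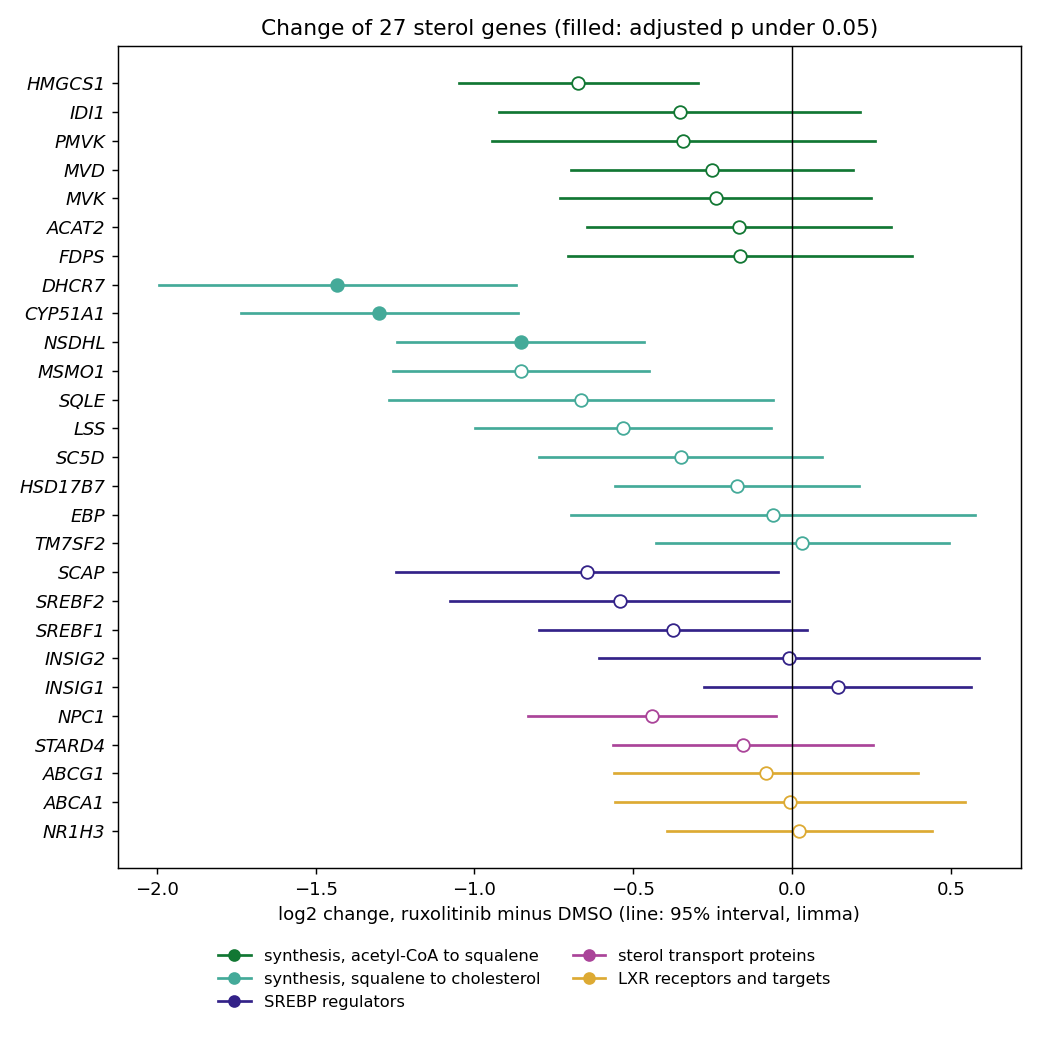
Log2 difference between ruxolitinib and DMSO for the 27 measured genes, in 5 roles shown by colour; points are limma estimates, lines are 95% intervals and filled points passed at an adjusted p under 0.05. The 3 filled points, at -1.43, -1.30 and -0.85, are all enzymes of the later steps, and the 3 LXR genes shown, without MYLIP, lie near 0.

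The promoters of the enzymes are shown because SREBPs act with the factor NF-Y at such sites in many of these genes. The windows below are the first listed for each gene in the RefSeq promoter table (GRCh38.p14), run from 250 bases before to 50 bases after the annotated start, and are written 5′ to 3′ on the gene's strand. The 5 enzymes with the lowest adjusted p are printed, with SREBF2 as the only listed gene whose window held the longer of the sterol response element forms searched. Capitals mark the NF-Y letters CCAAT, on either strand, and in SREBF2 also the sterol response element letters TCACNCCAC. The windows lie at chr7:92134428-92134727 (minus strand) for CYP51A1, chr11:71448344-71448643 (minus) for DHCR7, chrX:152830813-152831112 (plus) for NSDHL, chr4:165327419-165327718 (plus) for MSMO1, chr5:43313363-43313662 (minus) for HMGCS1 and chr22:41832855-41833154 (plus) for SREBF2.
CYP51A1: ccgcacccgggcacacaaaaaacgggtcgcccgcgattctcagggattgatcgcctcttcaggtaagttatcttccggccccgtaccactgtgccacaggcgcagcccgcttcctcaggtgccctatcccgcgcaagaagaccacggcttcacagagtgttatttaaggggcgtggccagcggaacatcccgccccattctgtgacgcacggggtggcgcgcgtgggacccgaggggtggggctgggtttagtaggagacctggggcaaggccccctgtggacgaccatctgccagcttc
DHCR7: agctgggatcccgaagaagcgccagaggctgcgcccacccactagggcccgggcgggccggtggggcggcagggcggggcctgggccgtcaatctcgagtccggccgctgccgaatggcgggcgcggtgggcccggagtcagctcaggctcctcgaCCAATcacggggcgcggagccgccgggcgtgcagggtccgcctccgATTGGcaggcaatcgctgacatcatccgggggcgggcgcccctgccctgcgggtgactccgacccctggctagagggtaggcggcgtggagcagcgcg
NSDHL: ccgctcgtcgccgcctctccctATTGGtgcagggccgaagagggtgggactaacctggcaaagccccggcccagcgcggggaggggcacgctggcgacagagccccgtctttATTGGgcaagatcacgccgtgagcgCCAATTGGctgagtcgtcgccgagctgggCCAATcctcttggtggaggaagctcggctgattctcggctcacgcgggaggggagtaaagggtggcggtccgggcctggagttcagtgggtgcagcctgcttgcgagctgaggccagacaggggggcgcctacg
MSMO1: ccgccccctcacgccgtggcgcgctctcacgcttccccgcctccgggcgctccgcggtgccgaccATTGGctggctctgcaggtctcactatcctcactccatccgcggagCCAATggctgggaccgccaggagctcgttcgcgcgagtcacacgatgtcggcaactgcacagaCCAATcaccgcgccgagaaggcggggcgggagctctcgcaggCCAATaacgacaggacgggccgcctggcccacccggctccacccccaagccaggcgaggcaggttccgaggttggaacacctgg
HMGCS1: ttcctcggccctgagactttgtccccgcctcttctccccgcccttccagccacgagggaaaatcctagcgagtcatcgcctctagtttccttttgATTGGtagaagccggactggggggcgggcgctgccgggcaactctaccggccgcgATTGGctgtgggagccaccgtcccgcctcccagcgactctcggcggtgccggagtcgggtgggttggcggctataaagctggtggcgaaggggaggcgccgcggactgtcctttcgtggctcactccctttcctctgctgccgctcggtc
SREBF2: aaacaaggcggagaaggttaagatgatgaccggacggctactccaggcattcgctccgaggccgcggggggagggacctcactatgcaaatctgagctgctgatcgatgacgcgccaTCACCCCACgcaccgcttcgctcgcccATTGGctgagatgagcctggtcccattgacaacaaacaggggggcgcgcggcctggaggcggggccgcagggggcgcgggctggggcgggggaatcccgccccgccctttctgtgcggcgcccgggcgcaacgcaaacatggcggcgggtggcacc

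CCAAT stood 5 times in the NSDHL window, 4 times in that of MSMO1, 2 times each in those of DHCR7 and HMGCS1 and in 0 places in that of CYP51A1. In the NSDHL window 2 of the matches, on opposite strands, overlap in the letters CCAATTGG. It was present in 12 of the 15 enzyme windows and in 16 of the 26 windows available for the 30 listed genes, those of NR1H2 and MYLIP included (61.5%), against 35.7% of 27305 windows of all genes. The Sp1 letters GGGCGG were in 24 of 26 (92.3%), against 44.6% of all windows. TCACNCCAC was in 1 of 26 (3.85%), that of SREBF2, against 1.15%, and the shorter CACCCCAC was in 2 of 26 (7.69%), those of SREBF2, where the letters overlap the longer match, and ABCA1, against 2.72%. The STAT letters TTCNNNGAA were in 0 of 26 windows, against 7.88% of all windows. These counts describe letters within 300 bases and say nothing of binding. The shares over all windows were not restricted to genes above the median level, where 26 of the 27 measured sterol genes lie.

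The genes that control the pathway did not pass the test, 0 of 5 in either direction (limma, adjusted p; without adjustment, 2 were lower and 0 higher at p under 0.05). SREBF2 encodes SREBP-2, the main driver of sterol synthesis genes, and SREBF1 encodes SREBP-1, which favours fatty acid genes. The SREBF2 signal was 11.7, 11.7 and 11.2 in DMSO and 11.4, 10.98 and 10.5 with ruxolitinib. The groups overlapped, because ruxolitinib replicate 1 was above DMSO replicate 3, and the log2 difference was -0.54 ± 0.24 (SE; limma adjusted p = 0.513). The SREBF1 signal was 8.41, 8.49 and 7.95 in DMSO and 7.86, 7.97 and 7.90 with ruxolitinib, a log2 difference of -0.37 ± 0.19 with overlap at DMSO replicate 3 (limma adjusted p = 0.607). SCAP, the escort of the SREBPs, had 11.4, 10.9 and 11.2 in DMSO and 10.9, 10.8 and 9.85 with ruxolitinib. All treated arrays lay below all DMSO arrays, by a narrow margin for ruxolitinib replicates 1 and 2 and by about 1 log2 unit more for replicate 3, and the log2 difference of -0.64 ± 0.27 did not pass (limma adjusted p = 0.474). Without DMSO replicate 1 and ruxolitinib replicate 3 the SCAP difference was -0.17 and that of SREBF2 -0.24. A second, dimmer SCAP row had a log2 difference of -0.86 ± 0.31, with ruxolitinib replicate 3 as the highest treated array (9.30 against 8.29 and 8.13), so the rows of this gene disagree about that array.

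INSIG1 and INSIG2 encode the anchors that retain SCAP in the endoplasmic reticulum, and INSIG1 is itself a well-known SREBP target. The INSIG1 signal was 10.2, 10.4 and 10.6 in DMSO and 10.7, 10.7 and 10.3 with ruxolitinib. Only ruxolitinib replicate 3 lay within the range of the DMSO arrays, and the log2 difference was 0.14 ± 0.19 with a 95% interval from -0.28 to 0.56 (limma adjusted p = 0.921). That interval does not reach the falls of CYP51A1 or DHCR7, and the difference between these genes was not tested. For INSIG2 the log2 difference was -0.0077 (95% interval -0.61 to 0.59), with DMSO replicate 1 at 7.54 against 8.51 and 8.44 on the other DMSO arrays.

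Both sterol transport genes lacked a call. NPC1, the lysosomal membrane protein that releases cholesterol from endocytosed lipoproteins, had 12.7, 12.9 and 12.6 in DMSO and 12.4, 12.4 and 12.2 with ruxolitinib. The groups did not overlap, and the log2 difference was -0.44 ± 0.18 (SE; limma adjusted p = 0.435). STARD4, a soluble carrier of cholesterol between membranes, was at -0.15 ± 0.19 and its groups overlapped.

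Of the 3 LXR genes measured on rows of their own 0 passed in either direction (limma, adjusted p; 0 also at an unadjusted p under 0.05). MYLIP, a further listed LXR target, is not among them. The row it shares with a microRNA gene had a log2 difference of -1.08 ± 0.17 (limma adjusted p = 0.0141) and is described at the end. The exporter gene ABCA1 had 6.42, 6.51 and 6.78 in DMSO and 6.65, 7.04 and 6.001 with ruxolitinib, so the treated arrays lay on both sides of the DMSO arrays. Its log2 difference was -0.0071 with a 95% interval from -0.56 to 0.54. The other measured exporter gene, ABCG1, was dim, with only 21.0% of genes at a lower mean, and its log2 difference was -0.082 (95% interval -0.56 to 0.40). NR1H3, which encodes LXR alpha, had a log2 difference of 0.024 (95% interval -0.39 to 0.44). The intervals of these genes still allow differences of up to about 0.5 in either direction, so a small change would not have been seen.

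By role, the median log2 difference was -0.60 for the later enzymes, -0.25 for the earlier enzymes, -0.37 for the SREBP regulators, -0.30 for the transport genes and -0.0071 for the LXR genes. The LXR value leaves out MYLIP, whose shared row had a log2 difference of -1.08, and includes the dim ABCG1. With an array removed, the median of the later enzymes lay between -0.79 and -0.44 and that of the regulators between -0.54 and -0.27. The median of the earlier enzymes was -0.094 without ruxolitinib replicate 3, -0.12 without DMSO replicate 3, -0.13 without DMSO replicate 2 and -0.42 without DMSO replicate 1. That of the transport genes was -0.19 without ruxolitinib replicate 3, and that of the LXR genes lay between -0.17 and 0.14 with an array removed. In all, 24 of the 27 genes had a difference below 0 (88.9%), against 53.4% of all genes and 60.2% of genes above the median level. In 7 of the 27 genes every ruxolitinib array was below every DMSO array, against 9.03% of all genes and 13.9% above the median level. In 0 of 27 every ruxolitinib array was above, against 5.14% and 4.93%. The 7 were CYP51A1, DHCR7, NSDHL, MSMO1, HMGCS1, NPC1 and SCAP, the last on its brighter row only, as the groups overlapped on its second row. At an unadjusted p under 0.05, 10 of 27 were lower, against 6.85% of all genes and 12.1% above the median level, and these were the same genes with SQLE, LSS and SREBF2. Differences between the roles were not tested.

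**Figure D3:**
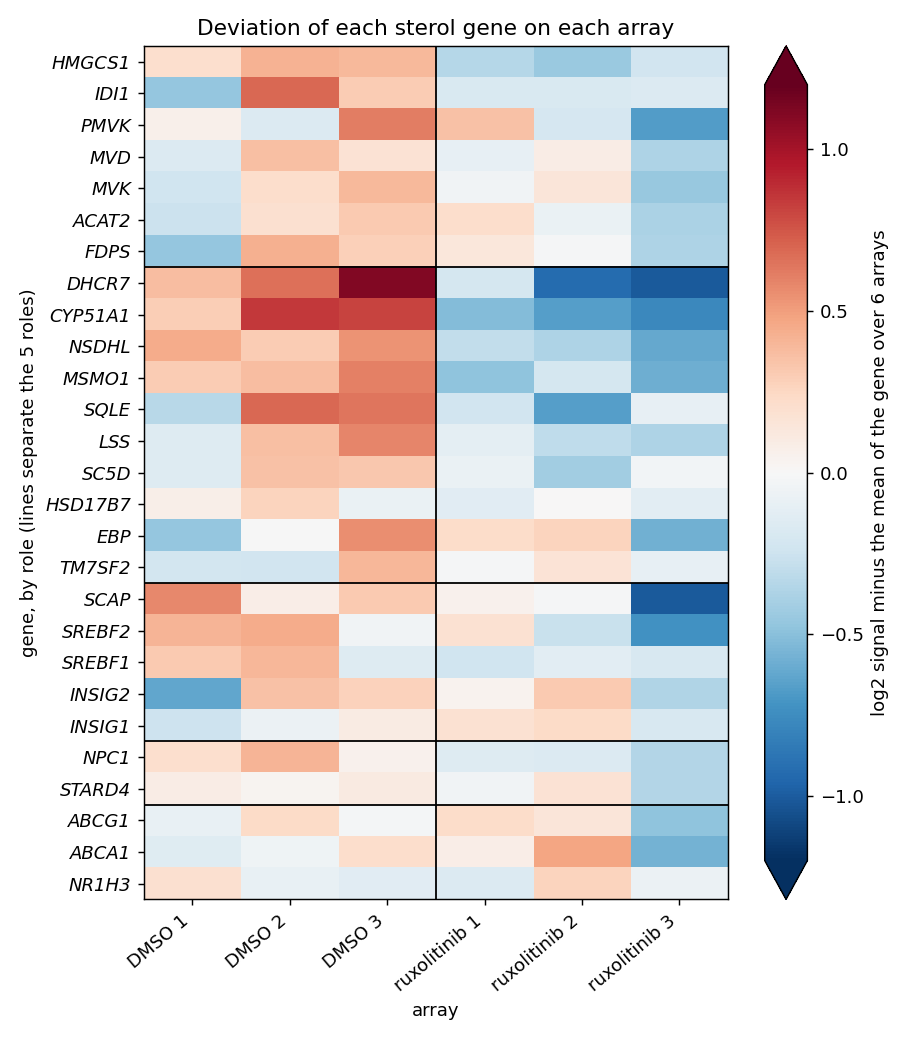
Log2 signal of each gene on each array after subtraction of the gene's mean over the 6 arrays, with genes in rows by role and arrays in columns; red is above and blue below that mean. Most of the later enzymes are red on DMSO replicates 2 and 3 and blue with ruxolitinib, while DMSO replicate 1 and ruxolitinib replicate 3 are the bluest arrays of their groups in most rows.

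The sterol genes shared a pattern within the groups as well. Of the 17 enzymes, 13 had their lowest DMSO value on replicate 1 (76.5%) and 12 their lowest ruxolitinib value on replicate 3 (70.6%). Among genes above the median level these shares were 48.5% and 43.8%, so these arrays were low for many other genes too. The median deviation of the 17 enzymes from each gene's own mean was -0.16, 0.36 and 0.40 on the DMSO arrays and -0.12, -0.20 and -0.37 on the ruxolitinib arrays. DMSO replicate 1 therefore lay within the range of the treated arrays in this summary, and the other DMSO arrays lay above all of them. These are the arrays with the highest small RNA signal, and the part of that signal in the sterol differences was not tested. Without both arrays the later enzymes had a median of -0.72, the earlier enzymes -0.28, the regulators -0.17 and the LXR genes 0.17, and 3 sterol genes were lower: CYP51A1 (-1.42 ± 0.21), DHCR7 (-1.45 ± 0.27) and SQLE. NSDHL was then at -0.75 ± 0.22 and did not pass (limma adjusted p = 0.188).

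**Figure D4:**
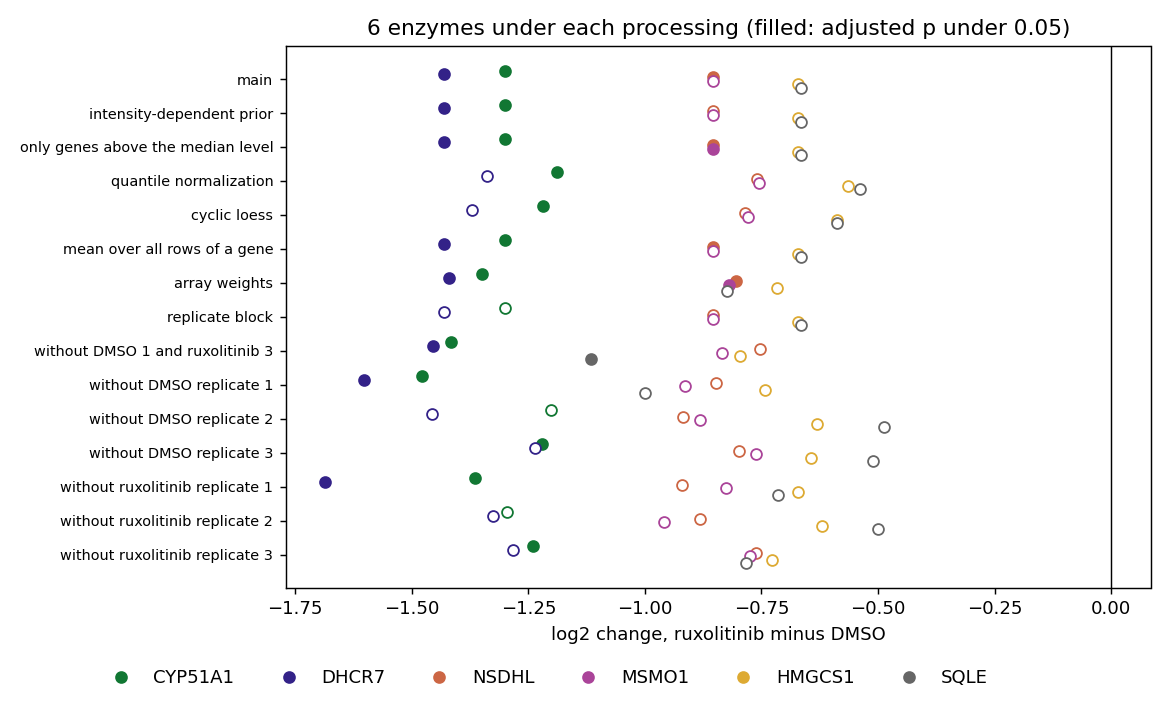
Log2 difference of 6 enzymes (colours) under the reported processing, named main, and 14 alternatives (rows); filled points passed at an adjusted p under 0.05 (limma). CYP51A1 and DHCR7 stay below -1 in every row, while the filling of the points, and so the call, comes and goes with the array left out and with the normalization.

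Other genes of sterol, isoprenoid and fatty acid metabolism were taken from 5 further lists. Of the 52 genes measured in them 6 fell (11.5%) and 0 rose. The shares were 1.04% lower and 0.101% higher over all genes and 2.02% lower above the median level. Of the 6 genes that fell, 3 were from the list of 12 fatty acid genes. Of 10 genes in branches of the mevalonate pathway 2 fell. PDSS1, which helps to make the side chain of coenzyme Q, had 10.0, 9.78 and 9.72 in DMSO and 9.11, 8.88 and 8.67 with ruxolitinib and fell by 0.96 ± 0.19 on the log2 scale (limma adjusted p = 0.0353). NUS1, a subunit of the enzyme that makes dolichol precursors, had 12.1, 12.5 and 12.5 against 11.5, 11.4 and 11.6 and fell by 0.90 ± 0.18 (limma adjusted p = 0.04). In both genes all treated arrays were below all DMSO arrays, but PDSS1 passed in 0 and NUS1 in 1 of the 6 fits made with an array removed. The median of this list was -0.095, so most of its genes had differences near 0.

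Among 18 genes of sterol transport, storage and oxidation 1 fell (5.56%, against 1.04% of all genes). This was LRP8, a lipoprotein receptor, with 11.1, 11.2 and 11.002 in DMSO against 10.2, 10.1 and 10.1, a fall of 0.97 ± 0.17 on the log2 scale (limma adjusted p = 0.0199), and it passed in 1 of the 6 fits with an array removed. The list median was 0.0079. Of 6 genes of SREBP processing and sterol-regulated degradation, with a median of 0.036, 0 passed in either direction (limma, adjusted p; 0 in either direction also at an unadjusted p under 0.05), and ERLIN2 had the smallest adjusted p (0.23 ± 0.18, limma adjusted p = 0.814). Of 6 LXR partners and further targets, with a median of -0.079, 0 passed in either direction (limma, adjusted p; 0 also at an unadjusted p under 0.05), and SMPDL3A, an LXR target in human macrophages, had the smallest adjusted p (0.28 ± 0.17, limma adjusted p = 0.710), with all treated arrays above all DMSO arrays. Of 12 fatty acid genes under SREBP-1 control 3 fell (25.0%, against 1.04% of all genes and 2.02% above the median level), with a median of -0.40. Like the sterol genes, all the further lists were fixed with earlier results of these arrays known, so their shares are a description and not a test. FASN, the fatty acid synthase, went from 9.33 ± 0.46 to 6.89 ± 0.49 (mean ± SD), a 5.45-fold fall, ACACA, an acetyl-CoA carboxylase, fell 3.45-fold and ELOVL6, an elongase, 2.18-fold. FASN and ACACA passed in all 6 fits with an array removed, and ELOVL6 in 1. ACACA did not pass when all rows of a gene were averaged (-0.87, limma adjusted p = 0.120).

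Several sterol genes start back to back with another gene, of which 5 such neighbours were measured. MVK lies 290 bases from MMAB, which encodes an enzyme of vitamin B12 metabolism and is known to share its promoter region. MMAB had 9.61, 9.72 and 9.91 in DMSO and 8.92, 9.03 and 9.19 with ruxolitinib, without overlap, and a log2 difference of -0.70 ± 0.18 that did not pass (limma adjusted p = 0.116). MVK itself was at -0.24 ± 0.22, with overlapping groups, and the difference between these neighbours was not tested. NSDHL lies 306 bases from CETN2, which encodes a centrosome protein. CETN2 had a log2 difference of -0.0013 with a 95% interval from -0.38 to 0.38. That interval does not reach the fall of NSDHL at 0.85, and the difference between CETN2 and NSDHL was not tested. CYP51A1 lies 86 bases from the noncoding gene CYP51A1-AS1, which was dim in both groups (2.90 and 3.07). Of the other noncoding neighbours, SNAI3-AS1, next to MVD, had a log2 difference of 0.034 ± 0.18, and MCM3AP-AS1, next to LSS, one of -0.72 ± 0.25 with overlapping groups (limma adjusted p = 0.301).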

How the data were processed

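RNA from 3 DMSO and 3 ruxolitinib samples was labelled as biotinylated cRNA for Affymetrix arrays, per the labels. The deposited values are log2 signals, 1 column per array, a unit taken from the values, which run from 1.99 to 19.9. RMA, Transcriptome Analysis Console and Affymetrix Expression Console are named, per the submitters' processing notes, without version or role. The authors' genome build and filters: not given in the sources used here. Of 135750 rows, 36176 carried exactly 1 gene symbol, 1119 several and 98455 none. A RefSeq table (GRCh38.p14) supplied current symbols by Entrez identifier for 25516 rows, which left 33616 genes.

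The comparison used lmFit and eBayes of limma 3.58.1 (R 4.3.3), two-sided and without covariates, with Benjamini-Hochberg adjustment over all genes and a threshold of 0.05, without a filter on dim genes, and the fit was checked on simulated data. Every listed gene on the array is named; of the other lists, each gene that passed or else the one with the smallest adjusted p. The neighbours within 1000 bases were added after their values were seen. The members and lists were chosen with earlier results of these arrays known, and are not complete for the pathway. Replicate numbers were not treated as pairs. The labels do not say whether replicates were separate cultures, so p-values may measure technical spread only. The number of arrays limits precision: the median 95% interval reached 0.44 on the log2 scale either side. In bulk RNA, fewer cells of a kind and less RNA per cell cannot be told apart. Detection calls were not used.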

Additional observations from a re-analysis of the deposited data

How the results depend on the processing

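The 14 alternatives changed the prior, the filter, the scaling, the row per gene, the array weights, the replicate number or the arrays used. CYP51A1, DHCR7, NSDHL, MSMO1 and HMGCS1 were below 0 in all of them. The 3 lower sterol genes became 1 with quantile normalization, 1 with cyclic loess, 0 with the replicate block and 0 to 2 with an array left out, and 0 were higher in any setting (limma, adjusted p). The 6 lower genes of the other lists became 2, 3 and 2 in those settings and 2 to 5 with an array left out. Over all genes the 350 lower became 166, 224, 116 and 98 to 280, and the 34 higher became 21 with quantile normalization, 6 with the replicate block and 3 to 28 with an array left out. The cause of these losses was not tested. The median of all genes was -0.071 with dimmer genes dropped, and that of the SREBP regulators was -0.17 without DMSO replicate 1 and ruxolitinib replicate 3.

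Signs turned only in genes near 0. EBP was at 0.027 with quantile normalization and 0.021 with cyclic loess, and INSIG2 at 0.075 and 0.049. ABCA1 was at 0.035 and 0.0043 in these settings and 0.085 with array weights. Without DMSO replicate 1 and ruxolitinib replicate 3 together, TM7SF2 was at -0.0099, ABCA1 at 0.20 and ABCG1 at 0.075. With 1 array left out, the range was -0.44 to 0.0072 for FDPS, -0.075 to 0.24 for TM7SF2, -0.31 to 0.21 for EBP, -0.32 to 0.17 for INSIG2, -0.10 to 0.13 for NR1H3, -0.25 to 0.27 for ABCA1 and -0.21 to 0.14 for ABCG1.

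With the replicate block CYP51A1 (limma adjusted p = 0.0590), DHCR7 (limma adjusted p = 0.0982) and NSDHL (limma adjusted p = 0.194) did not pass. The block treats samples with the same replicate number as pairs. Deviations of same-numbered arrays correlated at -0.21, -0.085 and -0.40 across genes, and 0 of 3 DMSO arrays correlated best with its own number. Deviations within a group of 3 arrays sum to 0, so these correlations constrain each other. They cannot show whether the samples were paired. With 3 arrays per group, dim signal, as for ABCG1, limits what can be seen.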

Other observations

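A row annotated jointly to MYLIP, an LXR target that marks lipoprotein receptors for degradation, and to the microRNA gene MIR4639 belongs to neither gene alone and was outside the comparisons above. Its log2 signal was 11.3, 11.4 and 11.2 in DMSO and 10.1, 10.4 and 10.2 with ruxolitinib. All treated arrays were below all DMSO arrays, and the row fell by 1.08 ± 0.17 on the log2 scale (SE, n = 3 per group; limma adjusted p = 0.0141 over all rows with at least 1 symbol). ABCA1, ABCG1 and NR1H3, each measured on a row of its own, had log2 differences of -0.0071, -0.082 and 0.024 on the same arrays.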
